A study of Saccharomyces cerevisiae with 2 samples.

Results

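Nucleosomes that were well occupied in both libraries, and whose called centre lay 20 bp or more away in cells without FUN30, are described here. They were chosen in 3 steps from the lists of nucleosome calls of a wild-type and a fun30 deletion library of budding yeast (Saccharomyces cerevisiae). A wild-type call and a deletion call were paired on chromosomes 1 to 16 when each was the nearest to the other and their centres were at most 73 bp apart. Pairs were kept when the occupancy signal of both calls was at or above the median of its own file, which was 0.210 in both. Of the 19751 well-occupied pairs, 2921 had centres 20 bp or more apart, which is 14.8% (exact Clopper-Pearson 95% interval 14.3 to 15.3%). These 2921 are called the shifted nucleosomes, and the other 16830 the unshifted pairs. The share was 26.6% over all 40794 pairs and 37.7% over the 21043 pairs that missed the occupancy minimum.

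Both libraries came from strain BY4741, a haploid laboratory strain that was grown in rich medium and fixed with paraformaldehyde. Micrococcal nuclease, an enzyme that cuts linker DNA, was applied to crude nuclei, and gel-purified mononucleosomal fragments were sequenced. The wild-type group is 1 library with 48019 calls, and the fun30D mutant group is 1 library with 48135 calls. The labels do not say how the deletion was made or whether the mutant was 1 clone. With 1 library per genotype no test between genotypes can be made, and effects of genotype, culture, digestion and library preparation cannot be told apart. Intervals below cover counting error over calls only.

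Fun30 is an ATP-dependent chromatin remodelling enzyme of the Snf2 family, related to human SMARCAD1. Remodelling enzymes use ATP to slide nucleosomes along DNA, to exchange histone dimers or to evict histones. Fun30 is known for its part in silent chromatin and in the resection of DNA ends, and the title of the study places its question at sliding of nucleosomes near promoters. A slid nucleosome would be seen in such data as a call with a displaced centre, a shorter linker on the side it moved to and a longer linker on the side it left. The positions of the files could not be tied to genes here, so no nucleosome below is assigned to a promoter.

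The displacement itself chose these nucleosomes, so its size and direction are given as a description. Displacements had a median of 29 bp, quartiles of 23 and 37 bp and a highest value of 73 bp. Displacements from 20 to 24 bp made up 879 of the 2921, and those from 60 to 64 bp made up 44. The direction along the chromosome was nearly even. The centre lay at higher coordinates in the fun30 deletion library in 1468 cases (7.43% of well-occupied pairs) and at lower coordinates in 1453 (7.36%). By chromosome the larger imbalances were on chromosome 2, with 108 to higher and 82 to lower coordinates, and on chromosome 3, with 31 and 43.

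**Figure D1:**
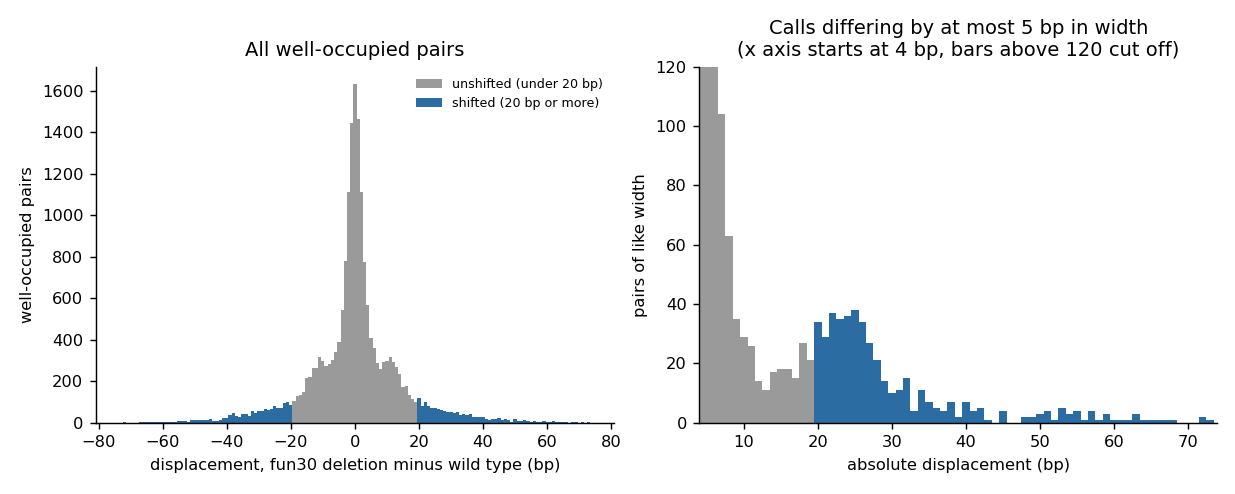
Number of well-occupied pairs by displacement of the centre in bp (left, higher coordinates positive) and, for pairs whose calls differ by at most 5 bp in width, by absolute displacement (right). Blue bars are the shifted nucleosomes and grey bars the unshifted pairs. The left panel has a main peak at 0 and a shoulder near 11 bp on each side, and the right panel has a second peak at 23 to 25 bp.

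The shape of the distribution depended on call width. Over all well-occupied pairs the number at 1 displacement value went from 2904 at 1 bp to 541 at 8 bp, was 636 at 11 bp, and was 207 at 20 bp. Among the 7448 well-occupied pairs whose calls differed by at most 5 bp in width, the centres formed 2 separate groups. Displacements of 12 to 14 bp were seen in 42 of these pairs and displacements of 23 to 25 bp in 109. The shifted nucleosomes of like width numbered 449, or 15.4% of all shifted ones, with a median displacement of 26 bp (quartiles 23 and 32 bp). They divided into 216 to higher and 233 to lower coordinates.

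Each call was then split into its edges, computed from its centre and width, to see which side of the nucleosome was displaced. The edge on the side to which the centre moved is called leading and the other trailing. Both edges moved by 10 bp or more with the centre in 1863 shifted nucleosomes, or 63.8% (62.0 to 65.5%). Their median width was 111 bp in wild type against 112 bp in the mutant, and the median displacement of the centre was 32 bp. Single calls often changed width as well, by a median of 13 bp (quartiles 6 and 26 bp). The width stayed within 5 bp in 449 of them (24.1%, 22.2 to 26.1%).

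The other shifted nucleosomes were displaced at 1 edge. In 466 of them (15.95%, 14.6 to 17.3%) only the leading edge moved, by a median of 50 bp, while the trailing edge moved by 1.5 bp. Such calls were narrower in wild type (median 98 bp) than in the mutant (152 bp), which displacement at this edge alone brings by construction. In 543 (18.6%, 17.2 to 20.05%) only the trailing edge moved, by a median of 51.5 bp. These were wider in wild type (160 bp) than in the mutant (106 bp), again by construction. Among the 1009 nucleosomes displaced at 1 edge, those that were narrower in the mutant made up 53.8% (50.7 to 56.9%). In the remaining 49 the edges moved in opposite directions by 10 bp or more.

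**Figure D2:**
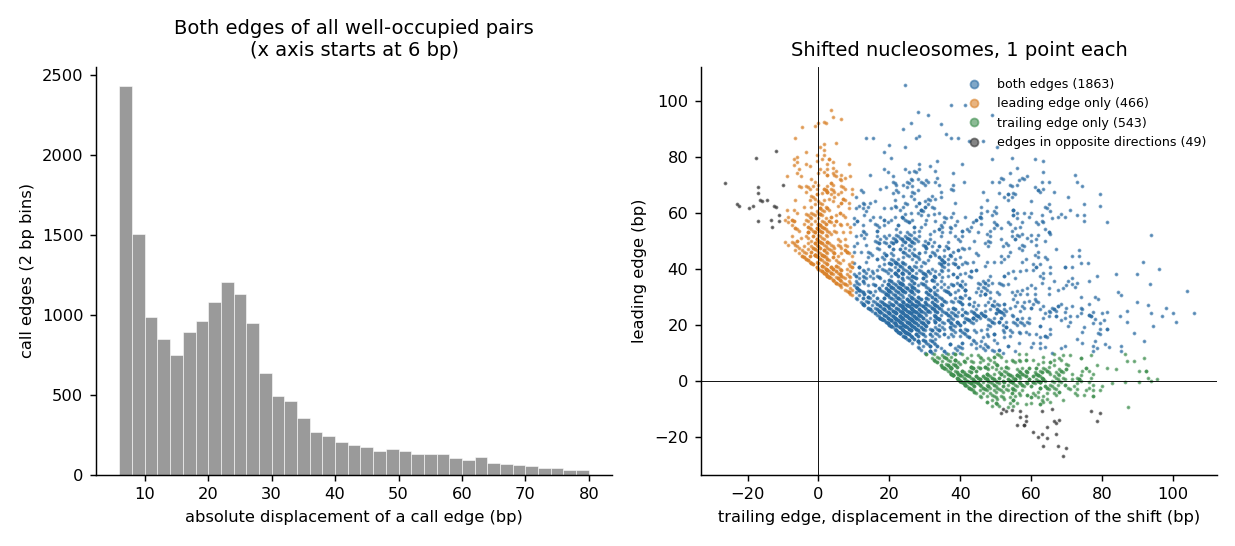
Absolute displacement of the call edges of all well-occupied pairs in 2 bp bins (left), and displacement of the leading against the trailing edge for each shifted nucleosome in bp, coloured by which edges moved (right). The left panel has a low at 14 to 16 bp and a second peak at 22 to 24 bp. The right panel shows 1 cloud displaced at both edges and 2 arms along the axes, displaced at 1 edge only.

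Edge displacements over all well-occupied pairs also fell into 2 groups. The 2 bp bins held 749 edges from 14 to below 16 bp and 1207 edges from 22 to below 24 bp. An edge displacement of 22 bp at 1 side alone moves a centre by 11 bp, which is below the threshold of 20 bp, whereas the same displacement at both edges moves it by 22 bp.

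Distances to the neighbouring nucleosomes were compared where the next call in both libraries was also a pair. Such a neighbour is called clean. The leading distance, from the shifted nucleosome to the neighbour it approached, had a median of 168 bp in wild type against 140 bp in the mutant over 2007 cases. The trailing distance had a median of 134 bp in wild type against 163 bp in the mutant over 2057 cases. The leading side was therefore the longer one in wild type and the shorter one in the mutant, an exchange that the choice by displacement favours. Unshifted pairs, weighted to the 10 occupancy classes of the shifted ones, had a median distance of 163 bp in both libraries.

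Most displacements came with a changed distance to a neighbour, which the choice by displacement brings wherever the neighbour stayed in place. The shares below are therefore a description. The trailing distance was longer by 20 bp or more in 65.4% (63.3 to 67.5%) and the leading distance shorter by 20 bp or more in 65.6% (63.5 to 67.7%). Both held at once in 660 of 1419 nucleosomes with clean neighbours on both sides, or 46.5%. Averaged over both libraries, the leading distance had a median of 154 bp (quartiles 127 and 188) and the trailing distance 148 bp (126 and 178).

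The place of a shifted nucleosome between its neighbours was close to even in the libraries. It lay nearer the midpoint of its neighbours in the mutant in 756 of 1419 cases, or 53.3% (50.6 to 55.9%). In unshifted pairs of like occupancy this share was 50.2%, and the difference was 3.07 percentage points (0.236 to 5.91). The difference had this sign on 10 of 16 chromosomes. The median distance from the midpoint was 27.5 bp in wild type against 25 bp in the mutant.

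Neighbours of shifted nucleosomes were themselves displaced more often. A neighbour was counted once for each shifted nucleosome beside it, and adjoining shifted nucleosomes counted each other. Intervals here and for the directions below treat these counts as independent and are therefore too narrow. Of 4064 clean neighbours of any occupancy, 1237 were displaced by 20 bp or more, which is 30.4% (29.0 to 31.9%). Around unshifted pairs of like occupancy this share was 23.4%, and the difference of 7.01 points (5.47 to 8.55) had the same sign on all 16 chromosomes. Among neighbours that were also well occupied, the shares were 20.1% of 2206 around shifted nucleosomes and 12.3% around unshifted pairs of like occupancy. At rank 2 the share for any occupancy was 25.2% around shifted nucleosomes (23.7 to 26.8%) and 23.5% around unshifted pairs of like occupancy, and at rank 4 it was 22.0% (20.1 to 24.1%) and 22.4%. The excess was thus largest at rank 1 of the 5 ranks compared.

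Displaced neighbours mostly went the same way, but this depended on how near they were. Of the 1237 displaced neighbours, 870 (70.3%, 67.7 to 72.9%) moved in the direction of the shifted nucleosome. The share was 92.4% for neighbours under 120 bp away and 82.2% from 120 to below 140 bp. It was 59.9% (55.0 to 64.5%) at the regular spacing of 140 to below 190 bp, and 47.0% (37.6 to 56.5%) from 220 to below 450 bp. Pairing by nearest centres limits opposite displacements of calls that lie close together, and how much this adds at short distances was not tested. At rank 2 the same-direction share was 51.2% (47.6 to 54.8%).

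Long rows of shifted nucleosomes were rare under the definition used. A row could continue only through a clean neighbour that was also well occupied, as 2206 of the 4064 clean neighbours were. A displaced neighbour below the occupancy minimum ended it. Of the 2921 shifted nucleosomes, 2603 had no clean neighbour that was also a shifted nucleosome with the same direction. Another 306 stood in 153 rows of 2, and 12 in 4 rows of 3. At the other extreme, both clean neighbours stayed within 5 bp in 206 of 1419 cases, or 14.5% (12.7 to 16.5%), against 17.5% of unshifted pairs of like occupancy.

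Calls less than 120 bp apart lie closer together than nucleosomes at regular spacing. Another call lay less than 120 bp from the centre, in at least 1 library, in 1789 shifted nucleosomes (61.2%, 59.5 to 63.0%). The share was 42.2% in unshifted pairs of like occupancy, and the difference of 19.04 points (17.1 to 21.0) had the same sign on all 16 chromosomes. By library the shares were 41.1% against 30.7% in wild type and 39.0% against 29.4% in the mutant. A displaced call is nearer to 1 of its neighbours in each library, so the choice by displacement itself raises these shares. Measured from the mean centre of the pair instead, a point that does not favour either side, a call under 120 bp away was seen for 58.5% of shifted nucleosomes (56.7 to 60.3%) and 42.04% of unshifted pairs. That difference was 16.4 points (14.5 to 18.4), also with the same sign on all 16 chromosomes. Among well-occupied pairs with clean neighbours on both sides, 14.7% of 2821 were shifted where 1 neighbour was under 120 bp away in the mean of both libraries. Without such a neighbour 11.4% of 8834 were shifted (10.7 to 12.03%). The occupancy classes alone give 14.8% and 13.9%.

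Close calls without a partner lay on a particular side in each library. In wild type an unpaired call lay less than 120 bp ahead of 422 shifted nucleosomes (14.4%, 13.2 to 15.8%) and behind 86 (2.94%, 2.36 to 3.62%). In the mutant the order was the reverse, with 93 ahead (3.18%, 2.58 to 3.89%) and 406 behind (13.9%, 12.7 to 15.2%). Thus 1 library had 2 neighbouring calls where the other had 1 call displaced towards the place of the missing one. The 2 libraries did this almost equally often. In unshifted pairs of like occupancy the shares were 6.35% and 3.87% in wild type and 3.54% and 6.01% in the mutant. Pairing can leave a call without a partner when a displaced call is the nearest one to both, and how much this adds was not tested.

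The unpaired calls beside shifted nucleosomes had lower median occupancies than the nucleosomes themselves. The choice favours this order, because shifted nucleosomes had to reach 0.210 in both libraries and unpaired calls had no minimum. Where wild type had the additional call ahead, it lay a median of 98 bp away with a median occupancy of 0.179, against 0.346 for the shifted nucleosome in the same library. The mutant call stood 32.2% of the way towards it (quartiles 26.3 and 39.6%), a value that pairing by nearest centres keeps at or below 50%. Where the mutant had the additional call behind, the values were 97 bp, 0.174 and 0.355. Calls that differed at 1 edge only were often of this kind. An unpaired wild-type call lay ahead of 120 of the 466 nucleosomes displaced at the leading edge only (25.8%, 21.8 to 30.0%). An unpaired mutant call lay behind 142 of the 543 displaced at the trailing edge only (26.2%, 22.5 to 30.1%).

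**Figure D3:**
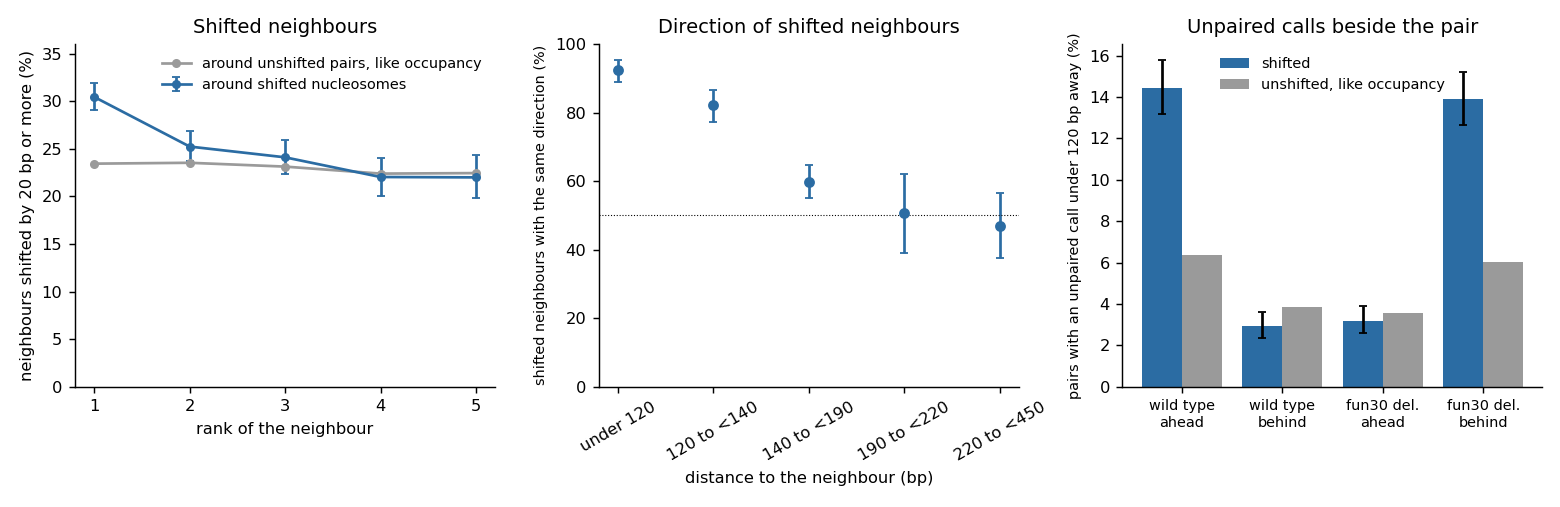
Share of neighbours displaced by 20 bp or more by rank (left), share of displaced neighbours with the direction of the shifted nucleosome by distance in bp (middle, dotted line at 50%), and share of pairs with an unpaired call under 120 bp away by library and side (right). Blue points and bars carry exact 95% intervals, and grey marks unshifted pairs weighted to like occupancy. The same-direction share goes from 92.4% to 47.0% with distance, and unpaired calls lie ahead in wild type and behind in the mutant.

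Occupancy differences within the shifted nucleosomes were small and of no preferred sign. The median occupancy was 0.335 in both libraries, and the nearly identical distribution of the deposited values in both files favours such equality. The occupancy minimum in both libraries also limits how far weaker pairs can differ, shifted and unshifted alike. Occupancy was higher in the mutant in 1444 of 2921 (49.4%, 47.6 to 51.3%), and in 49.9% of unshifted pairs of like occupancy. The log2 ratio of mutant to wild type had a median of -0.01, with quartiles of -0.26 and 0.24. Occupancy differed at least 2-fold in 41 shifted nucleosomes (1.40%, 1.01 to 1.90%), 21 higher and 20 lower in the mutant. The share in unshifted pairs was 1.31%. The difference between these shares, 0.0929 points, had an interval from -0.372 to 0.558.

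Strong nucleosomes were displaced less often, with and without a close call. In the lowest of 10 occupancy classes of well-occupied pairs 25.9% were shifted (24.0 to 27.9%), and in the highest 2.38% (1.75 to 3.15%). Among pairs with another call under 120 bp away the share went from 30.5% in the lowest class to 4.06% in the highest. Without such a call it went from 22.2% to 1.43%. These groups depend in part on the displacement, which brings a neighbour nearer in 1 library. With close calls counted from the mean centre of the pair, the share went from 29.2% to 4.16% with such a call and from 23.4% to 1.36% without. It was lower without a close call in each of the 10 classes by both counts.

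The width of the calls differed between shifted nucleosomes and unshifted pairs. Shifted nucleosomes had a median width of 115 bp in wild type against 114 bp in the mutant, but the quartiles were 97 and 141 bp in wild type and 100 and 133 bp in the mutant. Unshifted pairs of like occupancy had quartiles of 104 and 121 bp in wild type and 106 and 121 bp in the mutant. The width changed by 20 bp or more in 58.9% of shifted nucleosomes (57.1 to 60.7%) against 30.1% of unshifted pairs. The choice by displacement favours this contrast. In the 1009 nucleosomes displaced at the leading or the trailing edge only, such a change follows by construction. The same holds for the 49 whose edges moved in opposite directions. How much of the contrast remains without these nucleosomes was not tested. Of the shifted calls 48.1% were wider in the mutant (46.3 to 49.96%), against 47.5% in unshifted pairs of like occupancy. The difference of 0.593 points had an interval from -1.42 to 2.60. Calls of equal width were not counted as wider.

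By the mean width of both calls, 7.11% of pairs were shifted at 110 to below 120 bp (6.55 to 7.70%). The share was 49.3% at 140 to below 160 bp (46.0 to 52.7%) and 26.5% at 80 to below 90 bp (22.3 to 31.0%). The occupancy classes of these pairs alone give 12.9%, 17.6% and 17.9%. Calls in the files are 80 to 180 bp wide, so calls near these limits have less room to change.

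**Figure D4:**
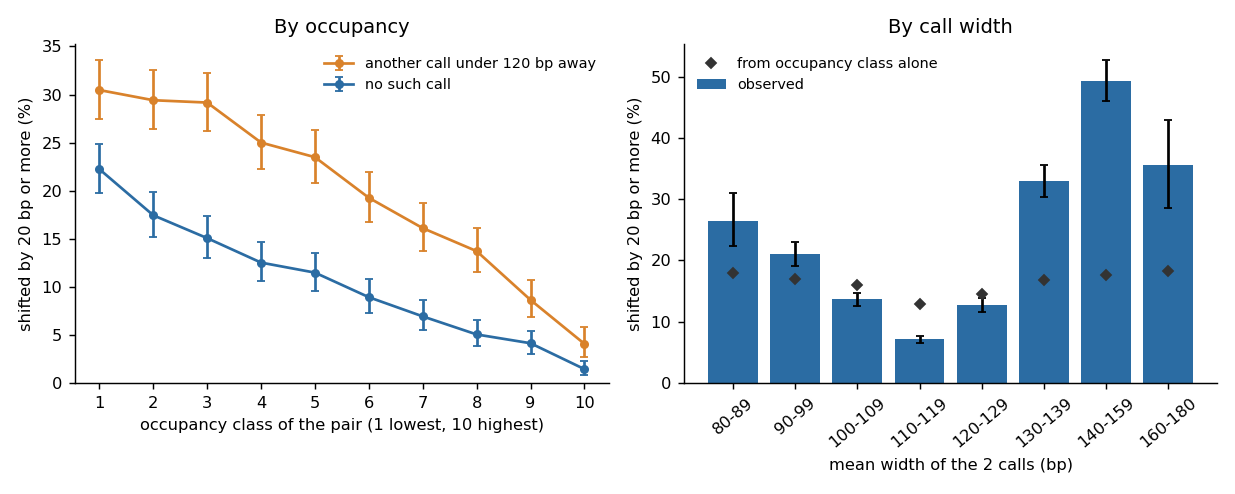
Share of well-occupied pairs shifted by 20 bp or more, by occupancy class and presence of another call under 120 bp away (left), and by mean call width in bp (right). Error bars are exact 95% intervals and diamonds show the share that the occupancy classes alone give. The share declines with occupancy in both groups and is lowest at widths of 110 to 119 bp.

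Nucleosomes beside wide gaps were compared because nucleosomes near promoters flank nucleosome-free regions. Of 1419 shifted nucleosomes with clean neighbours on both sides, 268 flanked a gap of 220 to 450 bp between centres (18.9%, 16.9 to 21.0%). In unshifted pairs of like occupancy this share was 28.1%, and the difference of -9.17 points (-11.5 to -6.88) had the opposite sign on 1 of 16 chromosomes. Such gaps were not matched to promoters, and some may hold a nucleosome that was not called. Of these 268, 13 had a wide gap on both sides and 255 on 1 side, and 147 of the 255 moved into the gap (57.6%, 51.3 to 63.8%). With those whose other side had no clean neighbour and was not measured, 211 of 407 did (51.8%, 46.9 to 56.8%), so the preference depends on which nucleosomes are counted.

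The surroundings of a well-occupied pair separated the shifted share further. With neighbours at regular spacing on both sides, 9.56% of 2887 pairs were shifted (8.51 to 10.7%), where occupancy classes alone give 12.5%. With a wide gap on a side and no close call, the share was 9.42% of 3397 (8.46 to 10.5%), where occupancy gives 15.0%. Without clean neighbours on both sides it was 18.6% of 8096 (17.7 to 19.4%), where occupancy gives 15.7%. In the other 2550 pairs with clean neighbours on both sides, of mixed spacing and with no close call or wide gap, 15.96% were shifted (14.6 to 17.4%), where occupancy gives 14.2%. Over all 11655 pairs with clean neighbours on both sides the share was 12.2% (11.6 to 12.8%), where occupancy gives 14.2%.

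Shifted nucleosomes were found on every chromosome. The share of well-occupied pairs ran from 12.2% on chromosome 3 (9.73 to 15.1%) to 17.1% on chromosome 14 (15.2 to 19.2%). On chromosome 14 there were 235 shifted nucleosomes where occupancy classes alone give 202, and on chromosome 3 there were 74 where they give 77.8. Chromosome 1 had 67 where they give 55.6. Within 10 kb of the outermost calls 16.7% of 180 pairs were shifted (11.5 to 22.9%), and from 10 to below 30 kb 15.1% of 872 (12.8 to 17.7%). From 30 to below 100 kb the share was 12.9% of 4340 (11.96 to 13.98%), and farther inside 15.3% of 14359 (14.7 to 15.9%). Occupancy classes alone give 15.4%, 15.1%, 13.8% and 15.0%, each within the interval of the observed share.

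Of 607 windows of 20 kb with well-occupied pairs, 16 held no shifted nucleosome, and the median window held 4. The most, 15 of 53 pairs, lay on chromosome 5 between 460 and 480 kb, where occupancy classes give 5.88. Next came 14 of 52 on chromosome 14 between 180 and 200 kb, and 13 of 41 on chromosome 7 between 120 and 140 kb. Directions were mixed in these windows, with 7, 8 and 6 to higher coordinates. A further 13, of 48 pairs, lay on chromosome 12 between 80 and 100 kb. These windows are the extremes of 607.

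Single nucleosomes show what the displacements look like, in the coordinates of the deposited files, whose genome build the labels and headers do not state. The largest displacements equal or approach the pairing limit of 73 bp, so such pairs may join different nucleosomes. On chromosome 14 a nucleosome at 729715 in wild type was at 729788 in the mutant library, with occupancies of 0.385 and 0.354. Its leading distance went from 237 to 137 bp and its trailing distance from 108 to 176 bp, while the neighbour behind moved by 5 bp only. On chromosome 9 a nucleosome at 166987 was at 167059 in the mutant library, with occupancies of 0.214 and 0.212 and both neighbours displaced by 10 bp. It left a stronger neighbour at 106 bp, whose occupancy was 1.42 in wild type.

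The other large displacements to higher coordinates were 73 bp on chromosome 11 at 440628, 71 bp on chromosome 12 at 325586, 71 bp on chromosome 13 at 748577 and 70 bp on chromosome 4 at 809188. All 6 had occupancies between 0.211 and 0.409, in the lower range of well-occupied calls. The nucleosome on chromosome 11 approached a neighbour that itself moved by 65 bp the other way, so that the distance between them went from 249 to 111 bp.

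The largest displacements to lower coordinates included stronger nucleosomes. On chromosome 8 a nucleosome at 174498 with an occupancy of 0.722 was at 174429 in the mutant, with 0.525. Its neighbours, with occupancies of 1.63 and 1.81 in wild type, moved by 1 and 4 bp. The centre distances were 156 bp on both sides in wild type and became 88 bp ahead and 221 bp behind. This nucleosome was midway between nearly unmoved neighbours in wild type and off centre in the mutant.

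On chromosome 11 a nucleosome at 99322 was at 99252 in the mutant library, with occupancies of 0.439 and 0.217. It lay 86 bp from the call behind it in wild type and 88 bp from the call ahead in the mutant, and the neighbours moved by 5 and 2 bp. The others were at 794500 on chromosome 2 (73 bp), at 59262 on chromosome 1 (72 bp), at 130042 on chromosome 7 (72 bp) and at 484678 on chromosome 14 (68 bp). The calls on chromosome 2 had widths of 177 and 178 bp, near the widest in the files.

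The most occupied shifted nucleosomes had smaller displacements. The highest mean was on chromosome 12, at 460474 in wild type, against 460517 in the mutant, with occupancies of 1.30 and 4.06. It borders a stretch of 29097 bp without a wild-type call, and the call before it, at 460368 in wild type, was displaced by 24 bp in the same direction. The call behind both had an occupancy of 14.1 in each library. The treatment of reads with several matches is not stated in the labels or files, and its part in these values was not tested.

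Other strong shifted nucleosomes were not at such a border. On chromosome 1 a nucleosome at 190995 was at 190972, with occupancies of 2.22 and 2.27. On chromosome 14 a nucleosome at 116203 was at 116162, with 1.88 and 1.89, and the call went from 154 to 125 bp in width. On chromosome 10 a nucleosome at 400148 was at 400193, with 2.02 and 1.61, while the call behind it stayed in place. The call on chromosome 10 widened from 120 to 162 bp, and its leading edge moved by 66 bp and its trailing edge by 24 bp.

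**Figure D5:**
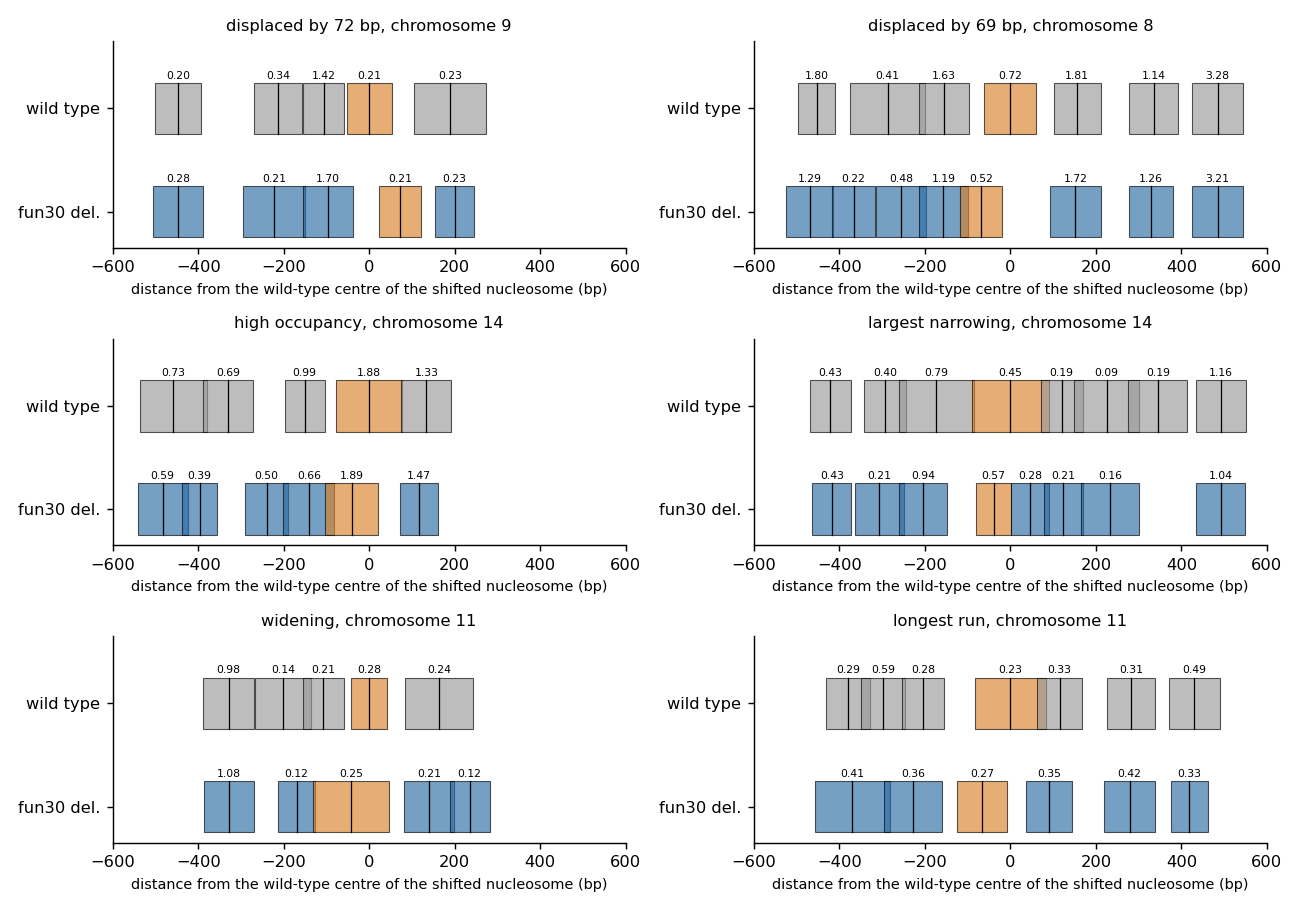
Calls of both libraries around 6 shifted nucleosomes, by distance in bp from the wild-type centre of the shifted nucleosome. Boxes span the call width, black lines mark centres, numbers give occupancy, and orange boxes are the shifted nucleosome (grey and blue boxes are the other wild-type and fun30 deletion calls). On chromosome 8 the orange call moves by 69 bp between neighbours that stay within 4 bp, and the other panels show calls that widen, narrow or move together.

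Changes of width accompanied many displacements. The largest loss was on chromosome 14 at 197053, where a call of 180 bp in wild type was 83 bp wide at 197014 in the mutant library, with occupancies of 0.452 and 0.571. The mutant had an additional, unpaired call at 197099 with an occupancy of 0.281, so that 2 mutant calls stood in the place of 1 wide wild-type call. On chromosome 16 a call of 177 bp at 790194 was 82 bp wide at 790242, again with an unpaired mutant call behind it, at 790132. The other losses were 96 bp on chromosome 8 at 68470 and 94 bp on chromosome 12 at 233314.

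The largest gains showed the reverse in part. On chromosome 11 a call of 84 bp at 518247 was 179 bp wide at 518204 in the mutant, and an unpaired wild-type call lay ahead of it at 518140. On chromosome 7 a call of 83 bp at 861155 was 180 bp wide at 861186, also with an unpaired wild-type call ahead. No unpaired close call stood beside the gains of 97 bp on chromosome 15 at 695351 and of 94 bp on chromosome 12 at 637012.

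The longest rows of shifted nucleosomes with the same direction held 3 each. On chromosome 11, calls at 351176, 351380 and 351495 moved by 24, 67 and 25 bp to lower coordinates, and the next call behind moved by 3 bp. The call at 351380 had a width of 166 bp in the wild-type library and its partner 117 bp. On chromosome 4, calls at 939399, 939493 and 939708 moved by 37, 21 and 52 bp to lower coordinates. On chromosome 12, calls at 330220, 330408 and 330531 moved by 48, 37 and 22 bp to lower coordinates. The next call behind them moved by 28 bp the same way, but its occupancies of 0.186 and 0.178 were below the minimum. The call at 330220 had occupancies of 0.808 and 0.895.

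Distances to a neighbour changed most where both moved. On chromosome 13 the nucleosomes at 726306 and 726619, with occupancies of 0.336 and 0.251 in wild type, moved apart by 65 and 57 bp. On chromosome 14 a nucleosome at 361483 moved by 63 bp to lower coordinates while the call behind moved by 72 bp to higher ones, and their distance went from 317 to 452 bp. On chromosome 13 at 640248 the trailing distance went from 115 to 229 bp. The largest shortening after that at 440628 on chromosome 11 was on chromosome 16 at 939015, from 309 to 195 bp. It was followed by 525047 on chromosome 12, from 212 to 103 bp, and 140039 on chromosome 16, from 289 to 180 bp. The leading neighbours in these 3 cases had occupancies of 0.0899 to 0.233 in wild type, where the median of all calls was 0.210.

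The longest run of wild-type calls without a partner, 18 calls from 115011 to 117922 on chromosome 1, held 0 mutant calls. FUN30 lies on chromosome I in the gene table, and the run was taken as the missing segment for that reason and not from gene coordinates. Near it, between 110 and 120 kb, were 3 shifted nucleosomes. Over the whole of chromosome 1, 67 of 438 well-occupied pairs were shifted (15.3%), and the median window of 20 kb in the genome held 4. The stretch is shorter than such a window and includes the part without mutant calls, and no share of its well-occupied pairs is given. The 3 are therefore described singly, and whether they form a local excess was not tested. The nearest of the 3 was the last call before the stretch without mutant calls, at 114854 in wild type, against 114801 in the mutant, with occupancies of 0.359 and 0.314. It moved away from the missing segment, while the next call ahead of it, on its other side, moved by 1 bp. The others, at 112850 and 114228, were displaced at their leading edge only, by 56.5 and 39 bp, towards the missing segment.

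Pairs just inside and just outside the threshold were alike in occupancy and in width change. Exactly 20 bp was seen in 207 pairs, with a median occupancy of 0.320 and a median width change of 31 bp, and 19 bp in 206 pairs, with 0.350 and 28 bp. The strongest just inside were at 114228 on chromosome 1 (2.19 in wild type, against 1.58 in the mutant), at 498478 on chromosome 16 (1.88 and 1.15) and at 394047 on chromosome 10 (0.965 and 1.04). The strongest just outside were at 819580 on chromosome 13 (1.06 and 1.18), at 504786 on chromosome 2 (1.28 and 0.968) and at 235891 on chromosome 9 (1.04 and 1.12).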

How the data were processed

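Micrococcal nuclease digested DNA of 1 wild-type and 1 fun30 deletion library was analysed. Each deposited file lists nucleosome calls with a chromosome, a centre, a width and an occupancy signal (occ), per the file headers. The authors' scaling of the deposited signal, the read numbers, the caller and the genome build are stated in no label or header, so the depth is unknown. The submitters' processing notes name Bowtie 0.12.7, a read aligner. Over 1001 quantiles the occupancy values of the files differ by at most 0.0177%, and the lowest is 0.0824.

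Pairing, direction, edges, neighbours and intervals were computed in Python 3.11.15 with pandas 2.3.3, numpy 2.4.6 and scipy 1.17.1. The number of shifted nucleosomes, their direction, displacement of both edges and the share of displaced neighbours were tested on simulated data. The simulated calls were regularly spaced and all present in both libraries, and the other measures were not tested in this way. Unshifted pairs were weighted to the shifted nucleosomes' shares of 10 occupancy classes, cut by the geometric mean of both signals. Unshifted pairs with a displacement of 0 were counted as to higher coordinates for the sides ahead and behind. Differences of shares carry 95% normal intervals. Named regions are, by rule: the 6 largest displacements in each direction, the 6 highest occupancies, the 3 longest rows, the 4 largest gains and losses of width, the 3 strongest pairs on each side of the threshold, the 4 largest changes of each distance, and the 3 windows with most shifted nucleosomes. A 4th window and the 3 nucleosomes near FUN30 were added after their values were seen. The choice of nucleosomes and measures was made with earlier results of these data known. Gene positions and sequence were not used here.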

Additional observations from a re-analysis of the deposited data

Results flagged for a closer look

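A chromosome numbered 17, outside those compared, carried 3 calls in the fun30 deletion library and 0 in wild type. They take no part in the values above.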

How the results depend on the processing

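The 11 shares were recomputed under 9 settings, which gave 88 values, of which 48 stayed within the counting interval of the reported value and 40 did not. Counting close calls from the mean centre of the pair, a setting chosen after the data had been seen and used for that share only, gave 58.5%. No paired analysis was possible because each genotype has 1 library. Shifted nucleosomes, 14.8% of well-occupied pairs, became 13.8% with pairing up to 50 bp, 8.49% and 20.8% with occupancy at or above the upper and lower quartile, 7.05% and 2.94% for shifts of 30 and 40 bp or more, 10.3% without calls under 120 bp away and 6.999% with both calls 100 to 150 bp wide. For shifts of 30 bp or more, displaced neighbours became 20.7%, their same-direction share 77.5%, displacement of both edges 76.7%, longer trailing distance 76.0% and close calls 64.5%. For 40 bp or more these became 10.7%, 79.3%, 91.4%, 83.3% and 63.1%, while displacement to higher coordinates became 52.8%, wider calls 50.5% and gap flanks 16.2%. These larger thresholds count neighbours by the same threshold. Pairing up to 50 bp gave 27.0% displaced neighbours and 60.8% with both edges displaced. At the upper quartile of occupancy the same-direction share became 73.5%, close calls 65.3% and gap flanks 13.1%. At the lower quartile both-edge displacement became 66.0%, longer trailing distance 68.9%, close calls 56.3% and gap flanks 24.3%. Without calls under 120 bp away, displacement to higher coordinates became 47.7%, displaced neighbours 27.2%, longer trailing distance 67.5%, gap flanks 25.9% and higher occupancy 51.9%. With both calls 100 to 150 bp wide, displaced neighbours became 27.6%, both-edge displacement 90.7%, longer trailing distance 67.6%, close calls 57.9% and gap flanks 24.8%. Where thresholds or the selection of calls do not set a move by construction, the cause was not tested. In each setting that gave a value, the shares of displaced neighbours and close calls stayed above, and that of gap flanks below, the weighted unshifted value. Without calls under 120 bp away, gap flanks were 34.3% in unshifted pairs. The share of close calls is 0 by construction in that setting. The unknown depth limits how well a centre is placed in weak calls.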
